A study of Mus musculus with 5 samples.

Results

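A set of 358 regions was chosen because trimethylation of lysine 27 on histone H3 (H3K27me3) was called over more bases in WT than in Kdm6b-cKO dermal fibroblasts. Peaks of 4 libraries on the 19 autosomes were merged where they overlapped by at least 1 bp, which gave 47569 regions, and 9810 of these held a peak of every library. A shared region was chosen when the smaller of the WT covered lengths exceeded the larger of the Kdm6b-cKO covered lengths. This held for 358 regions, 3.65% of those shared, while 5617 regions, 57.3%, met the mirrored rule and 3835 met neither. The regions were selected on covered length, so covered length, peak number and fold in them describe the selection and carry no test.

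The study compared fibroblasts of WT mice with those of mice lacking Kdm6b in the dermis, on a C57BL/6 background. The knockout carried Kdm6b fl/fl and a Cre expressed from Twist2 (also named Dermo1), which limits deletion to cells of that mesenchymal lineage, and a ROSA26 mT/mG reporter line is listed among the strains. Per the study's methods, cells came from the skin of embryos at E18.5 and were expanded in culture, with n = 2 for each genotype, and the labels state a sort for GFP for all samples, WT included. The libraries used were Kdm6b-cKO replicate 3, Kdm6b-cKO replicate 4, WT replicate 7 and WT replicate 9. Whether those of a genotype came from separate embryos is not stated, and neither the deletion of Kdm6b nor read depth can be read from called peaks.

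H3K27me3 is placed by Polycomb repressive complex 2, which spreads it over broad domains at silent developmental genes. The Kdm6b protein (Jmjd3) takes the methyl groups off again. In fibroblasts such domains usually lie over regulators of other lineages, such as neural and head homeobox genes, and spare the genes that fibroblasts use.

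Windows of 2 members are shown by sequence because they hold the kinds of extra stretch described in the following paragraphs. In each, 1 window of 200 bases comes from a WT-only stretch, covered in WT replicates 7 and 9 but in no Kdm6b-cKO library, and 1 from the longest stretch covered in every library. The window was the exon-free one whose GC content was nearest to that of its stretch. Sequences are the forward strand of mm10 (GRCm38.p6), and capitals mark CpG dinucleotides.
Zdbf2 WT-only window: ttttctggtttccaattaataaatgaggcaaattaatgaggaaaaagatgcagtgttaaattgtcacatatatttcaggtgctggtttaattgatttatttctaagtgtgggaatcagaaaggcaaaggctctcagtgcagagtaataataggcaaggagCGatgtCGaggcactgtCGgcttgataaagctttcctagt
Zdbf2 all-library window: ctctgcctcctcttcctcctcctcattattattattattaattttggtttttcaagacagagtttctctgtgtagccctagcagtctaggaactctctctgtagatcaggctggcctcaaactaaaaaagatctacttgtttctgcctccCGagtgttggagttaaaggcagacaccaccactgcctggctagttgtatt
Tcf24 WT-only window: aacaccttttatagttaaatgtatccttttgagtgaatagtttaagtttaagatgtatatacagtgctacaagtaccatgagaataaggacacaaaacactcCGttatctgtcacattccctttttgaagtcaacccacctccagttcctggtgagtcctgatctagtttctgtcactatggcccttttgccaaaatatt
Tcf24 all-library window: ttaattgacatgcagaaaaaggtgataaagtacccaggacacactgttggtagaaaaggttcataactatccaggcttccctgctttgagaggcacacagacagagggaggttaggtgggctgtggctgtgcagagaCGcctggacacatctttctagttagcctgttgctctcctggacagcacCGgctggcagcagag
The Zdbf2 windows are chr1:63278512-63278711, in an intron of Zdbf2, and chr1:63243126-63243325, between genes. Their GC contents were 37.5% and 43.5%. The Tcf24 windows, chr1:9970283-9970482 and chr1:9968962-9969161, both lie in an intron of Ppp1r42, and their GC contents were 37% and 51%. The WT-only stretch was the poorer in GC in both regions. Of 63 WT-only stretches of at least 1 kb that could be set beside an all-library stretch of their own region, 58 were lower in GC, and the median difference over all 63 was -6.25 percentage points.

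The extra length was small in most of the 358 regions. The smaller WT length exceeded the larger Kdm6b-cKO length by a median of 533 bp (quartiles 240.5 and 983.25 bp). The ratio of these lengths had a median of 1.13 (quartiles 1.04 and 1.34). The extra length reached 1 kb in 87 regions and 2 kb in 24, and it stayed under 100 bp in 40. Libraries of 1 genotype differed by a median of 700 bp in WT and 573 bp in Kdm6b-cKO within these regions. The extra length was greater than both of these gaps in 103 regions, 28.8%.

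**Figure D1:**
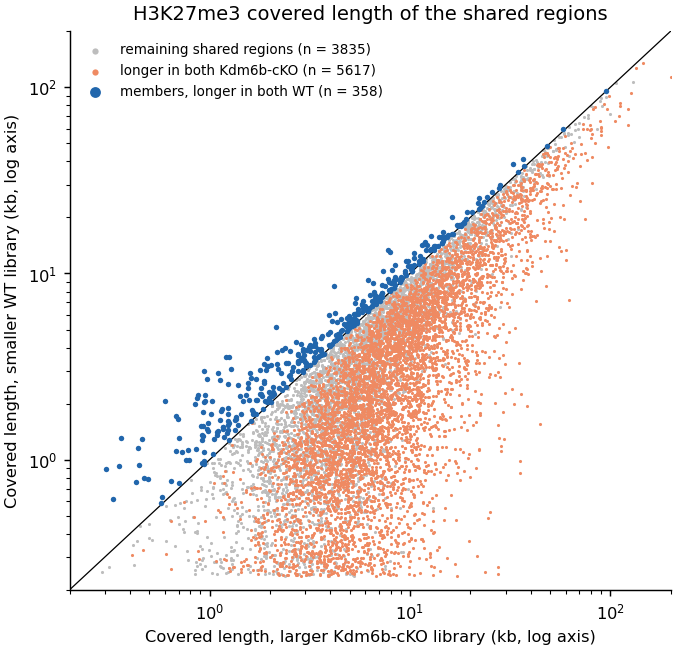
Each point is 1 of 9810 shared autosomal regions, with the larger Kdm6b-cKO covered length on the x axis and the smaller WT covered length on the y axis (kb, both axes logarithmic). The 358 regions longer in both WT libraries lie just above the line of equality, and the 5617 longer in both Kdm6b-cKO libraries and the 3835 others lie on or under it.

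Over whole lists the order of the genotypes was the opposite. Autosomal peaks covered 133 and 115 Mb in Kdm6b-cKO, replicate 3 first here and in all pairs that follow, against 81.8 and 55.3 Mb in WT, replicate 7 first. Within the 358 regions Kdm6b-cKO peaks covered 2246 and 2010 kb, against 2914 and 2612 kb in WT. The median covered length per region was 3.56 and 3.12 kb in Kdm6b-cKO, compared with 5.27 and 4.34 kb in WT. The set rests on each library: a peak and a covered length in the remaining 3 gave 1500 regions without Kdm6b-cKO replicate 3, 631 without replicate 4, 626 without WT replicate 7 and 2213 without WT replicate 9. When every list was trimmed to its strongest peaks up to the length of the shortest list, there were 3175 shared regions. Of these, 202, 6.36%, met the rule, and 105 of the 358 overlapped one of them.

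At the threshold, the 3 regions just inside had extra lengths of 1, 3 and 8 bp. Their nearest gene starts, at any distance, were those of Tle4, Neto2 and Twist2. The 3 just outside had differences of 0, -5 and -6 bp, and their nearest gene starts were those of Rhebl1, Tbx18 and Pax1.

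The region with the most extra length took in Hoxb5, Hoxb6, Hoxb7, Hoxb8 and Hoxb9, homeobox genes that pattern the body axis (chr11:96261237-96310774). Kdm6b-cKO peaks covered 32.2 and 32.7 kb of it, and WT peaks 46.5 and 38.6 kb. Both WT values lay above both Kdm6b-cKO values, and the WT libraries differed from each other by more than the 5.885 kb that separated the groups. Kdm6b-cKO cover was broken into 8 and 7 peaks and WT cover into 3 and 5. The window of 3 kb on either side of the Hoxb9 start was covered at 54% and 26.3% in Kdm6b-cKO, against 68.6% and 100% in WT. For Hoxb6 the shares were 54.9% and 62.7% against 100% and 77.5%. The windows of Hoxb5, Hoxb7 and Hoxb8 overlapped between the groups, so the extra length did not extend to every gene of the cluster.

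Zdbf2, an imprinted gene expressed from the paternal allele, lay in a region of 43.7 kb (chr1:63241317-63284998). Cover was 36.6 and 36.7 kb in Kdm6b-cKO, compared with 42.9 and 41.1 kb in WT. Here the libraries of a genotype lay closer to each other than to the other genotype, yet the 6001 bp promoter window was full in every library. WT-only bases filled a gap of 2.514 kb inside the gene and 0.948 kb beyond the outer Kdm6b-cKO ends. Mkrn3, an imprinted gene of the Prader-Willi region that encodes a makorin ring finger protein, lay 0.662 kb from a shorter region (chr7:62420801-62424691). That region was covered over 0.402 and 1.211 kb in Kdm6b-cKO, compared with 3.57 and 3.83 kb in WT. Peaks reached into the Mkrn3 promoter window over 2018 and 2339 bp in WT and over 0 bp in both Kdm6b-cKO libraries. Of 13 genes of the list of imprinted genes that met a shared region, Mkrn3 was the only one in the set, since Zdbf2 was not on that list. Of the 13, 11, 84.6%, met a region longer in Kdm6b-cKO, against 66.4% of all genes at shared regions.

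The region of Tcf24, a basic helix-loop-helix factor, and Ppp1r42 (chr1:9960351-9972957) was covered over 4.2 and 3.59 kb in Kdm6b-cKO, compared with 12.6 and 8.54 kb in WT. The extra cover lay wholly at its flanks, and the Tcf24 promoter window was covered at 70% and 59.9% in Kdm6b-cKO, against 100% in both WT libraries. Fezf1, a zinc finger factor of the forebrain, and Cadps2 shared a region (chr6:23238244-23265065) covered over 22.0 and 21.5 kb against 26.8 and 25.5 kb. The Fezf1 promoter window was full in all 4 libraries, so the difference lay away from it. Sox6, an SRY-box factor of cartilage and muscle, overlapped a region (chr7:115734952-115747848) with 7.31 and 6.22 kb against 11.4 and 10.4 kb. It lay 291 kb from the Sox6 start. The Sox6 promoter window was covered at 100% in both Kdm6b-cKO libraries, and at 100% and 77.6% in WT.

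Several of the leading regions lay far from any promoter. The nearest start of a protein-coding gene was 118 kb away for the region near Col11a1, a fibrillar collagen gene of cartilage (chr3:113899097-113912927). Cover there was 7.48 and 7.75 kb in Kdm6b-cKO, in 3 and 5 peaks, and 13.3 and 13.8 kb in WT, in 1 peak each. The region 82.1 kb from Six6, an eye and pituitary homeobox gene (chr12:72844175-72857800), had 7.98 and 5.75 kb in 4 and 3 peaks against 13.1 and 13.5 kb in 1 peak each. In both regions a single WT peak spanned several Kdm6b-cKO peaks. The regions nearest Tle4, a Groucho corepressor, Myocd, the smooth muscle coactivator, and Trps1, a GATA-type repressor of hair and cartilage, lay 175, 236 and 440 kb from those genes. Near Tle4 cover was 16.3 and 12.4 kb against 23.6 and 19.997 kb. For Myocd it was 6.18 and 3.66 kb against 17.1 and 9.26 kb, and for Trps1 it was 2.15 and 0.855 kb against 5.37 and 5.16 kb. In the Trps1 region 0.246 kb was covered in all 4 libraries and 0.016 kb was WT-only. Saxo2, a ciliary microtubule protein gene, and Abcb1a, a drug efflux transporter gene, completed the 12 with the most extra length, with 12.6 and 12.7 kb against 20.6 and 16.0 kb, and with 11.9 and 11.6 kb against 14.8 and 15.2 kb.

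**Figure D2:**
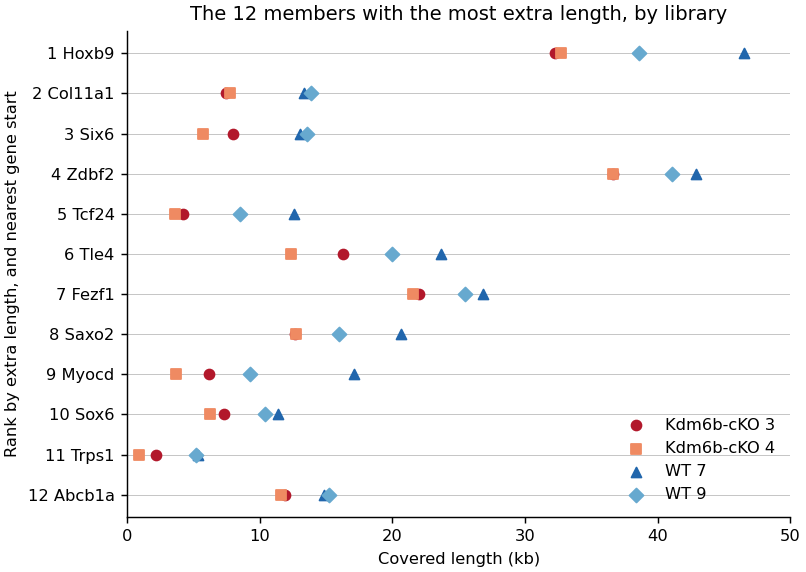
Covered length (kb) of the 12 regions with the most extra length in WT, named by the nearest gene start, with 1 symbol for each library. Both WT symbols lie to the right of both Kdm6b-cKO symbols in every row, as the choice of regions requires, and the gap is widest against the spread within genotypes near Col11a1.

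**Figure D3:**
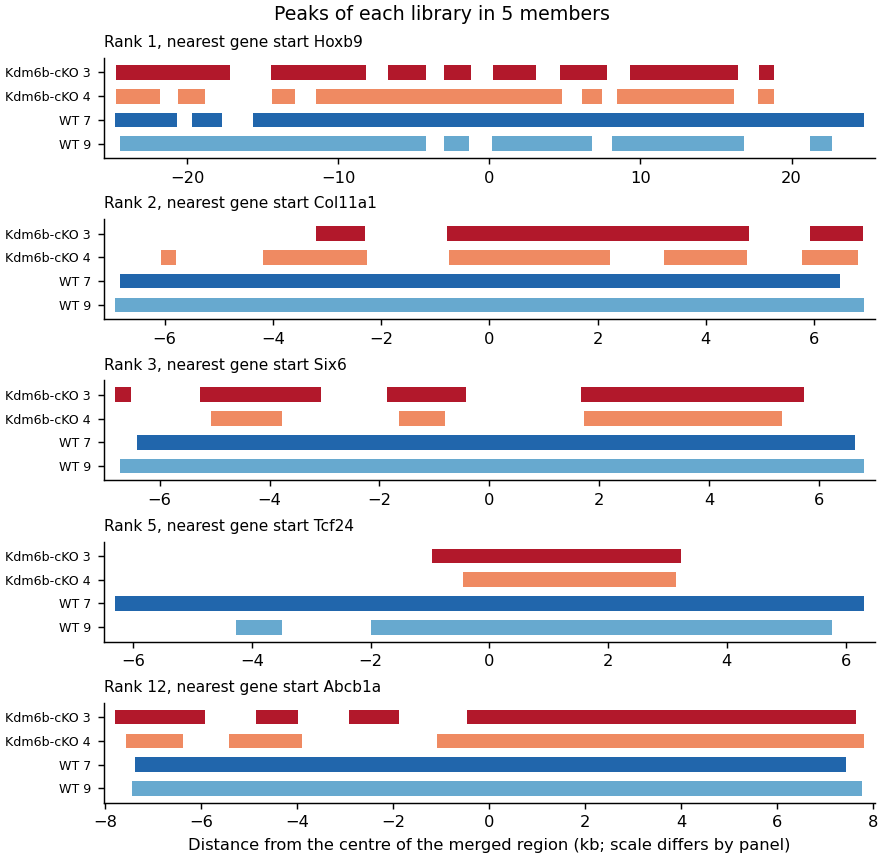
Bars show the called peaks of each library in 5 of the regions, against the distance in kb from the centre of the merged region. Near Col11a1 and Six6 1 WT peak spans 3 to 5 Kdm6b-cKO peaks, whereas in the Tcf24 region the WT peaks run past both ends of a single Kdm6b-cKO peak.

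The largest ratios, among regions with at least 2 kb in the smaller WT library, were in short regions. A region overlapping Slc38a6, a solute carrier gene (chr12:73329682-73332210), had 0.486 and 0.597 kb in Kdm6b-cKO, compared with 2.18 and 2.07 kb in WT, a ratio of 3.47 between the nearest values. No base of it was covered in all 4 libraries. The region 206 kb from Cog6, a Golgi complex gene, had 0.94 and 0.319 kb against 3.0 and 4.09 kb, and 99.2% of it was soft-masked as repeat. Ratios of 2.95, 2.88, 2.80 and 2.65 belonged to the regions near Mkrn3, Chl1, a neural adhesion gene, Kcnn2, a calcium-activated potassium channel gene, and Ctxn2, a cortexin gene. The Chl1 and Kcnn2 regions lay 16.9 and 113 kb from those gene starts. Kdm6b-cKO peaks covered 1325 and 413 bp of the Kcnn2 promoter window, against 0 bp in both WT libraries. For Ctxn2 the values were 2648 and 3407 bp against 2188 and 749 bp, and the Chl1 window overlapped between the groups. Ratios of at least 2 were found in 26 regions and ratios under 1.1 in 151.

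The bases that separated the genotypes were described next. In 326 regions, 320 kb was WT-only, whereas 18.9 kb in 54 regions was covered in both libraries of Kdm6b-cKO and in no WT library. Of the WT-only bases, 146 kb, 45.6%, lay between the outer ends of the Kdm6b-cKO peaks, where they filled gaps, and 174 kb, 54.4%, lay beyond those ends. Gaps alone held them in 61 regions, flanks alone in 198 and both in 67. The other 32 regions had no base of this kind, and 47 regions, 13.1%, had no base covered in all 4 libraries because neighbouring peaks linked them in a chain. That share was 10.8% in the regions longer in Kdm6b-cKO.

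WT cover was also less broken. The 358 regions held 546 and 558 Kdm6b-cKO peaks and 413 and 469 WT peaks. Both Kdm6b-cKO libraries had more peaks than both WT libraries in 36 regions, 10.1%, against 2.31% of all shared regions, and the reverse held in 1. A single peak in each of the 4 libraries was found in 174 regions, 48.6%, against 37.1% of all shared regions. Along regions scaled to 1 length, the central 20% of the length was covered at 71.5% and 65.9% in Kdm6b-cKO, against 95.8% and 88.7% in WT, and the first 10% at 35.3% and 25.3% against 67.5% and 53.4%. The difference was therefore present in the centre as well as at the edges.

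**Figure D4:**
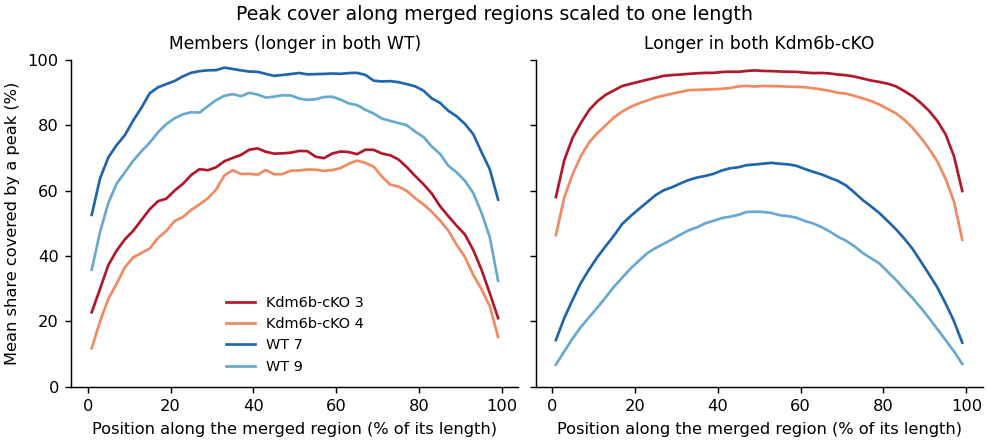
The mean share of bases covered by a peak (%) is plotted against position along merged regions scaled to 1 length, with a line for each library, for the 358 regions longer in WT and the 5617 longer in Kdm6b-cKO. In the first panel both WT lines lie above both Kdm6b-cKO lines, at 95.8% and 88.7% against 71.5% and 65.9% in the central 20%, and in the second panel the order is turned.

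The fold over local background that the peak caller gave was similar across libraries. Its median over the 358 regions was 3.14 and 3.02 in Kdm6b-cKO and 3.21 and 3.22 in WT. Both WT values exceeded both Kdm6b-cKO values in 165 regions, 46.1%, and the reverse held in 49, 13.7%. For all shared regions these shares were 17.4% and 38.0%. Longer cover in WT thus went with a fold above both Kdm6b-cKO values in under 50% of the set, but more often than over all shared regions. Neither order held in the remainder. In the Tcf24 region the fold was higher in Kdm6b-cKO, at 5.52 and 5.72 against 4.27 and 4.24.

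The 358 regions were poor in GC, a property that the choice did not use. Their median GC content was 41.9% (quartiles 39.7% and 43.7%), against 48.0% (45.8% and 50.4%) in regions longer in Kdm6b-cKO and 44.5% (42.5% and 46.7%) in the remainder. Of the 358, 328 lay under the median of all shared regions, 46.4%. CpG density had a median of 7.95 per kb, against 12.4 and 9.81 per kb in the other classes. When shared regions were divided into 10 equal bins by GC content, the set made up 171 of 981 regions, 17.4%, in the lowest bin and 2 of 981, 0.204%, in the highest. Regions longer in Kdm6b-cKO went from 12.2% to 87.6% over the same bins. The difference appeared with and without a promoter: in the lowest 2 bins the set made up 14.9% of the regions at a promoter and 12.4% of those away from one, and in the highest 2 bins 0.683% and 0.126%. The part of base composition in the result was not tested.

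**Figure D5:**
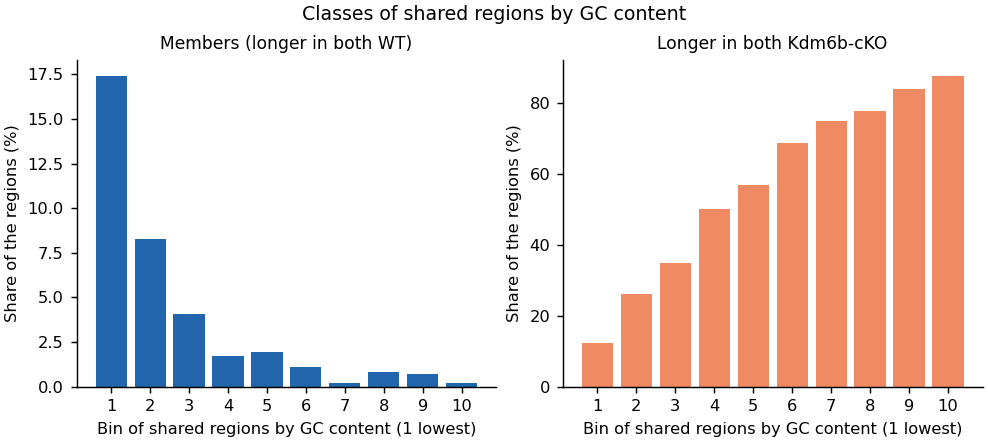
Bars give the share (%) of each of 10 equal bins of the 9810 shared regions, ordered by GC content from lowest to highest, that was longer in both WT libraries (first panel) or in both Kdm6b-cKO libraries (second panel, with its own axis). The first falls from 17.4% to 0.204% and the second rises from 12.2% to 87.6%.

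Composition differed within regions as well. Bases covered in all 4 libraries had a GC content of 44.8%, WT-only bases in gaps 37.2% and WT-only bases in flanks 38.2%. Over all shared regions these values were 48.2%, 38.1% and 39.8%, so a lower GC content of WT-only bases was not particular to the set. In 207 of 234 regions with at least 200 bp of both kinds, the WT-only bases were the lower in GC, with a median difference of -5.65 percentage points. Soft-masked repeat made up 22.7% of the bases covered in every library, 32.1% of the WT-only gaps and 35.3% of the WT-only flanks. For bases covered in both Kdm6b-cKO libraries and no WT library it was 35.7%. Over all shared regions these values were 22.6%, 33.7%, 34.0% and 21.4%. A higher repeat content of WT-only bases was therefore not particular to the set. Over 80% of the sequence was soft-masked in 23 of the 358 regions, 6.42%, against 0.498% and 2.63% in the other classes. These 23 had GC contents from 35.7% to 40.02% and a median extra length of 843 bp. How reads were assigned among repeat copies is not given in the sources used here, and its part in the result was not tested.

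The regions lay in gene-poor surroundings. A median of 7 protein-coding gene starts lay within 500 kb, against 14 for regions longer in Kdm6b-cKO and 9 for the remainder. Gene starts were more than 100 kb away for 88 regions, 24.6%, against 11.9% and 18.1%. Promoter windows, which reach 3 kb from a gene start in each direction, were met by 120 regions, 33.5%, close to the 36.2% of all shared regions. Gene bodies were met by 169 regions, 47.2%, against 51.5% of all shared regions. Neither a gene body nor a promoter was met by 160, 44.7%, close to the 42.3% of all shared regions. Regions of this kind also had different neighbours: a region with peaks of both Kdm6b-cKO libraries and no WT peak lay within 100 kb of 43.3%, against 75.3% of the regions longer in Kdm6b-cKO, 58.9% of the remainder and 67.7% of all shared regions. Of 204 that were followed by a shared region within 100 kb, 23, 11.3%, were followed by another of the set, against 3.23% of all shared regions. Chromosomes 3 and 12 had the highest shares, 6.91% and 6.30% of their shared regions, and chromosomes 7 and 8 the lowest, 2.48% and 2.54%.

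Genes met by the set were 200 of the 4833 that met a shared region, 4.14%, whereas 66.4% met a region longer in Kdm6b-cKO. Homeobox and other developmental transcription factors were 18 of 178, 10.1%, in 15 regions, and the 5 Hoxb genes shared 1 of these. The others included Foxa3, Gata3, Nkx2-4, Nkx2-9, Otx1, Pax3, Pax9, Pou4f2, Sox17, Sox30, Sox5 and Sox6, and 84 of the 178 met a region longer in Kdm6b-cKO. Of the 18 genes, only Hoxb6 and Hoxb9 had a promoter window covered more in both WT libraries. The windows of Gata3, Nkx2-4, Nkx2-9, Pax3, Pax9, Pou4f2 and Sox17 were full in all libraries. Those of Foxa3 and Sox5 were covered more in both Kdm6b-cKO libraries. The next 4 were picked after their values were seen. Nkx2-4, a homeobox gene of the brain (chr2:147078853-147094402), had 11.5 and 11.3 kb against 14.5 and 14.2 kb. Nkx2-9 (chr12:56605466-56623878) and its neighbour Pax9 (chr12:56673847-56705708), a paired-box gene of tooth and thymus, had 14.0 and 12.3 kb against 17.1 and 15.7 kb, and 28.2 and 25.5 kb against 31.1 and 29.8 kb. In these 3 regions both WT values lay above both Kdm6b-cKO values, as chosen. Pax3, a regulator of muscle and neural crest and the longest region of the set at 101 kb, had 95.2 and 95.3 kb against 98.5 and 95.8 kb, so that the smaller WT value was only 0.431 kb above.

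Other lists gave few genes. Olfactory and vomeronasal receptors had 3 of 30, synaptic adhesion and axon guidance genes 5 of 57, solute carriers 5 of 122, potassium, sodium and calcium channels 3 of 94, zinc finger (Zfp) genes 3 of 60, and cadherins, glutamate and GABA receptors, Wnt pathway genes and BMP and FGF family genes 1 each, of 29, 37, 32 and 33. The Wnt gene was Fzd4, a Frizzled receptor, whose region had 2.71 and 3.37 kb in Kdm6b-cKO, compared with 5.30 and 4.25 kb in WT. The Fzd4 promoter window went the other way, as Kdm6b-cKO peaks covered 2138 and 2338 bp of it and WT peaks 1659 and 364 bp, and 25 of the 32 Wnt genes met a region longer in Kdm6b-cKO. Keratins and keratin-associated proteins had 0 of 21, collagens and matrix proteases 0 of 32, dermal papilla genes 0 of 22 and Polycomb genes 0 of 7. In these 4 lists 19, 24, 15 and 7 genes, 90.5%, 75%, 68.2% and 100%, met a region longer in Kdm6b-cKO. Over all genes at shared regions the shares were 4.14% for the set and 66.4% for regions longer in Kdm6b-cKO. Lists this short would hold few genes of the set at the first of these shares.

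Marker lists were read for the cell type and for other cell types. None of 18 annotated fibroblast core markers met a shared region, and none had a promoter covered over 500 bp in any library. Endothelial, skeletal muscle and immune markers each had 1 gene in the set, Sox17 of 7, Pax3 of 7 and Gata3 of 9, while 5, 6 and 8 genes of these lists met a region longer in Kdm6b-cKO. Keratinocyte markers had 0 of 8 and melanocyte and neural crest markers 0 of 5, with 7 and 3 genes at a region longer in Kdm6b-cKO. Ebf2, a regulator of the adipocyte lineage, was the 1 of 18 genes on that list, through a region far from its start covered over 5.23 and 0.62 kb against 5.79 and 6.27 kb. On the same list 16 of the 18 genes, 88.9%, met a region longer in Kdm6b-cKO. Beside all these marker counts stand 4.14% of all genes at shared regions for the set and 66.4% for regions longer in Kdm6b-cKO. A peak list cannot show how many cells of each type a library held.

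At promoters the direction of the set was carried by a minority. Of 132 promoter windows that met one of the 358 regions, 57 were covered more in both WT, 9 more in both Kdm6b-cKO and 24 in full in all 4 libraries. The windows met regions chosen for longer WT cover, so these counts describe the choice. The same counts over all promoters at shared regions were not made. Beside Mkrn3 and Tcf24, the largest differences included Vmn1r1, a vomeronasal receptor, with 33.9% and 29.4% in Kdm6b-cKO against 88.5% and 66.01% in WT. Ugt8a, the galactolipid enzyme of myelin, had 71.3% and 80.6% against 100% and 99.6%. Tchh, which encodes trichohyalin of the inner root sheath, had 46.1% and 55.4% against 83.5% and 74.0%. Ica1l, an islet autoantigen relative, had 53.5% and 64.4% against 82.5% and 94.2%, Fam110c 80.4% and 74.2% against 95.9% and 93.3%, and Bmpr1b, a BMP receptor, 11.01% and 14.3% against 31.0% and 27.4%. In all of these both WT windows lay above both Kdm6b-cKO windows, which for a window inside a chosen region is no separate evidence.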

How the data were processed

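Dermal fibroblast H3K27me3 ChIP-seq libraries of 2 Kdm6b-cKO and 2 WT samples, grouped by title, were used as the peak lists deposited. The input was not analysed here. Per the study's methods, the authors aligned reads, subsampled the libraries to an equal read depth and called broad peaks in each at q 0.01. The submitters' processing notes give mm10 as the build and list MACS2 2.2.7.1, with Bowtie2 2.3.5.1 and SAMtools 1.9, among the tools. Each deposited peak has a position, a display score, a fold ratio over background, and p and q as −log10 values, as the authors' caller gave them, averaged over the broad peak. The lists hold no read counts, so the depth behind a peak is unknown and no count test or interval was used.

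Merging, covered length and classes were computed with Python 3.11.15, numpy 2.4.6 and pandas 2.3.3, and tested on planted intervals. GC content and repeat soft-masking were read with pysam 0.24.0 from GRCm38.p6, and 20807 protein-coding genes came from GENCODE M21. Fold in a region is the length-weighted mean over its peaks. Genes were named by rule: the 12 regions with the most extra length, the 6 highest ratios with at least 2 kb in WT, up to 10 promoters covered more in both WT, up to 4 genes of each list and the 3 regions on each side of the threshold. The members and lists were chosen with earlier results of these data known, so no test was run and every value is a description. Alternatives varied the peak threshold, list size, merging, margin, chromosomes and libraries. A gene and a sequence that these rules take are not reported here.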

Additional observations from a re-analysis of the deposited data

How the results depend on the processing

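Of the 358 regions, 236 overlapped a region that met the rule when each list was cut to 19210 peaks, 293 when peaks up to 1 kb apart were merged, 340 when at least 200 bp of overlap was required and 56 at a −log10 q of at least 5. The number of regions was 71 at that q, 202 with equal covered length and 185 with a margin of at least 500 bp. These were 4.98% of 1427, 6.36% of 3175 and 1.89% of 9810 shared regions, against 3.65% in the main setting. The number without 1 library also varied. It ranged from 626 to 2213 when 1 library was left out, and from 334 to 356 of the 358 overlapped one of those regions. The median extra length was 972 bp with the margin and ranged from 473.5 to 718 bp without 1 library. The median GC content was 44.9% at the stricter q, 42.4% with equal numbers of peaks, 44.5% with equal covered length, 40.9% with the margin and 41.2% with X included, and ranged from 42.2% to 43.6% without 1 library. In each it was below the median of the shared regions of that setting. The share at a promoter was 74.6%, 42.8% and 66.8% at the stricter q, equal number and equal length, where all shared regions had 79.3%, 42.2% and 66.2%, and it was 24.6% with promoters of 1 kb on either side. It ranged from 29.0% to 31.5% without 1 library. The set made up 23.2%, 29.3%, 11.4% and 21.6% of the lowest of 10 bins by GC at the stricter q, equal length, margin and X included, and from 23.3% to 50.6% without 1 library. In the highest bin it was 0% at the stricter q, equal length and margin, and ranged from 0.770% to 4.44% without 1 library. Leaving out repeat-rich regions, or those with no base covered in all 4, chosen after seeing the data, gave 335 and 311 regions. At the stricter q the smaller WT length was below the larger Kdm6b-cKO length in 4 of the 12 regions with the most extra length, near Hoxb9 (-2850 bp), Six6 (-1302 bp), Tle4 (-4457 bp) and Abcb1a (-10079 bp), and in the last 2 both WT lengths were below both Kdm6b-cKO lengths. The difference was 0 bp in 5 more, near Col11a1, Saxo2, Myocd, Sox6 and Trps1. In these settings a library with no peak left in the region counted as 0 bp, so a difference of 0 bp does not show equal cover. With equal covered length the difference grew to 34661 bp near Hoxb9, 13311 bp near Col11a1, 11757 bp near Six6 and 8733 bp near Tle4. Near Saxo2, Myocd, Sox6 and Abcb1a it grew to 15957, 9263, 10363 and 4736 bp. It fell to 0 bp near Trps1, with the same limit, and did not change near Zdbf2, Tcf24 and Fezf1. The cause of these shifts was not tested. No paired analysis was possible because replicate numbers are not shared between the groups. With 2 lists for each genotype and no counts, differences under the spread within a genotype could not be resolved.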

Other observations

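The X chromosome was outside the choice of regions. It held 1010 shared regions, of which 103, 10.2%, were longer in both WT libraries and 337, 33.4%, in both Kdm6b-cKO libraries. The median GC content was 40.2% in these 103 and 42.7% in all 1010. Peaks on X numbered 5569 and 3939 in Kdm6b-cKO replicates 3 and 4 and 4170 and 3387 in WT replicates 7 and 9, and they covered 14.9, 8.59, 9.57 and 6.27 Mb. Peaks on Y numbered 0 and 3 in Kdm6b-cKO and 1 and 2 in WT. The labels do not give the sex of the embryos, and its part in the values on X was not tested.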
